A study of Mus musculus with 12 samples.

Results

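The Hoxd genes of the mouse HoxD cluster were followed in colon tumours and in the colon tissue beside them. The 8 genes Hoxd3, Hoxd4, Hoxd8, Hoxd9, Hoxd10, Hoxd11, Hoxd12 and Hoxd13 were taken by name out of 48448 genes with a transcript in the deposited table. They were chosen by their tumour and adjacent levels in these same libraries, so their tumour differences are given as a description and carry no test. The filter on low values asked for 1 FPKM or more in 3 or more libraries: 7 of the 8 genes passed it, and Hoxd3 did not. FPKM counts fragments scaled by transcript length and by the size of the library, so levels of different genes can be set side by side.

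The 12 RNA-seq libraries were made from colon of C57BL/6 mice with colitis-associated cancer, and form 4 groups of 3. Control mice carried a floxed Synbindin allele (flox), and ΔIEC mice lacked Synbindin in intestinal epithelial cells. A tumour group and an adjacent group were sequenced for each genotype. All 4 groups come from the cancer model, so mice outside it were not analysed here. No source used here gives the age of the mice, the treatment that induced the tumours or the promoter that drives Cre. Below, F and D stand for flox and ΔIEC, A and T for adjacent tissue and tumour, and FA1 to FA3, DA1 to DA3, FT1 to FT3 and DT1 to DT3 name the libraries by replicate.

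HOX proteins are homeodomain transcription factors that give cells a position along the body axis. In each cluster the genes lie in the order in which they are used: genes of low number act towards the head and those of high number towards the tail, and the latter are switched on last. In the gut the genes at the high end mark the hindgut, and Hoxd13 is needed to shape the muscle of its outlet. Polycomb complexes hold silent stretches of the cluster closed, Trithorax-type complexes keep active stretches open, and retinoic acid acts above all on the low end.

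The 8 genes lie on the plus strand of chromosome 2 (GRCm38), and their RefSeq start sites run from Hoxd13 to Hoxd4 over 53.8 kb. Hoxd12 starts 6.79 kb, Hoxd11 11.3 kb, Hoxd10 23.7 kb, Hoxd9 29.5 kb, Hoxd8 36.4 kb and Hoxd3 43.8 kb from the start of Hoxd13. Hoxd3 is placed there by its first start site. Its other annotated transcripts start at 74732913 or later, beyond the end of Hoxd4 (74729160), and Hoxd1 lies further on, at 74762980. RefSeq promoters of 300 bases, 250 before and 50 after each start site (build GRCm38.p6), were found for all 8 genes, with a second one for Hoxd11. The promoters of Hoxd13 and Hoxd4 are shown because these genes stand at the ends of the tumour pattern below, and that of Hoxd8 because it lies where the pattern turns. Capitals mark matches, on either strand, to the motifs TATAAA (the TATA-box type), CATAAA (the type bound by caudal factors such as CDX2) and CTTTGAT (the type bound by TCF and LEF factors of Wnt signalling).
Hoxd13, chr2:74667975-74668274, plus strand: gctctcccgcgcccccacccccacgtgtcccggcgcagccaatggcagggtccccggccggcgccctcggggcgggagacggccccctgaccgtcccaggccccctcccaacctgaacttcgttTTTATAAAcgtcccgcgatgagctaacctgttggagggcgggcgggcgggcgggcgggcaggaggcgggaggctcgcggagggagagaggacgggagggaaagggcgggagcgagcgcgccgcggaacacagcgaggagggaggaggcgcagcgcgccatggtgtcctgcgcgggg
Hoxd8, chr2:74704365-74704664, plus strand: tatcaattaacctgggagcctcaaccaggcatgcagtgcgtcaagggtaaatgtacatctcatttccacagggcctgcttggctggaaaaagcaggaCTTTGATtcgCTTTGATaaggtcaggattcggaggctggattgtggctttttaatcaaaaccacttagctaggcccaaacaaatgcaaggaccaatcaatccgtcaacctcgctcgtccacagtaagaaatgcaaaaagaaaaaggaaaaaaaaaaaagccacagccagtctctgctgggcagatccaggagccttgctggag
Hoxd4, chr2:74721728-74722027, plus strand: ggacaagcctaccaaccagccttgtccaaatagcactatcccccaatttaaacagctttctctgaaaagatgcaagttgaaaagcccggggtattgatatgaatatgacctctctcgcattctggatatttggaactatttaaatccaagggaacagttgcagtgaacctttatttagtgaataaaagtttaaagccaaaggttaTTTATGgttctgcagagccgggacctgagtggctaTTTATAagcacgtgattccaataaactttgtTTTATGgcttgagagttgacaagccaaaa
The Hoxd13 stretch in capitals is TATAAA read on both strands, with its first bases at -126 and -124 from the start site. In the Hoxd4 promoter CATAAA begins on the minus strand at -45 and 22 and TATAAA at -10, and in the Hoxd8 promoter CTTTGAT begins on the plus strand at -153 and -143. The Hoxd13 promoter held 37 CG pairs, more than 94.4% of 32544 distinct promoters of the same length, whereas the Hoxd8 promoter held 6 and the Hoxd4 promoter 4 against a median of 7. The remaining members had 13 (Hoxd12), 4 and 25 (Hoxd11), 22 (Hoxd10), 20 (Hoxd9) and 20 (Hoxd3) CG pairs. Among the 9 promoters of the 8 genes TATAAA stood in 2, CATAAA in 3 (those of Hoxd11, Hoxd3 and Hoxd4), CTTTGAT in 1, TGATTNAT (a Hox-Pbx type) in 1 (the second Hoxd11 promoter) and TGACAG (a Meis type) in 0. Of all 32544 promoters, 13.6% held TATAAA, 11.9% CATAAA, 3.73% CTTTGAT, 3.23% TGATTNAT and 19.1% TGACAG. Such a match is a stretch of letters and was not measured as a bound site.

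Trappc4, which encodes Synbindin (ENSMUSG00000032112), was at 16.8 to 17.3 FPKM in flox adjacent tissue and 17.5 to 20.9 in flox tumours, against 10.2 to 12.6 and 9.91 to 12.7 in the ΔIEC groups, so every ΔIEC library was below every flox library. Tissue adjacent to tumours is labelled as epithelium, and its summed FPKM over 9 epithelial markers was 5746 to 9931, against 4107 to 5901 in tumours. The 11 fibroblast markers summed to 62.8 to 331.5 FPKM in adjacent libraries and 323.8 to 690.7 in tumours, and the 7 leukocyte markers to 34.7 to 212.6 and 52.1 to 101.2, so the libraries hold RNA of other cell types. In bulk samples fewer cells of a type and less RNA per cell cannot be told apart. The labels do not say whether libraries of a group are separate animals. The p-values therefore speak only of the spread from library to library, which may be technical. The sequencing depth is unknown, because the deposited values are FPKM.

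Hoxd9, Hoxd10, Hoxd11, Hoxd12 and Hoxd13, the high end of the cluster, were higher in every one of the 6 tumours than in every one of the 6 adjacent libraries. Their summed level was 78.2 to 115.2 FPKM in tumours, 43.8 in FA1 and 0.464 to 3.36 in the other 5 adjacent libraries. Hoxd4 and Hoxd3, near the low end, had their highest levels in adjacent tissue, and the tumour levels of Hoxd8 lay inside its adjacent range. FA1, labelled flox adjacent replicate 1, stood apart from the other adjacent libraries for Hoxd10 to Hoxd13, and each flox tumour difference is therefore also given without it.

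Hoxd13 (ENSMUSG00000001819, chromosome 2, 74668310 to 74671599, 1 transcript of 2 exons) encodes the last protein of the cluster, required for digits, genitalia and the end of the hindgut. In adjacent tissue its level was 31.0 FPKM in FA1, 0.0461 in FA2, 0.0735 in FA3, 0.0529 in DA1, 0.137 in DA2 and 2.67 in DA3. In tumours it was 63.7 in FT1, 69.6 in FT2, 55.6 in FT3, 42.5 in DT1, 52.9 in DT2 and 52.3 in DT3. The 6 tumours thus lay within a narrow band, whereas adjacent libraries were near 0 in 4 cases, low in DA3 and at 55.2% of the tumour mean in FA1. Group means were 10.4 ± 17.8 in flox adjacent tissue, 0.954 ± 1.49 in ΔIEC adjacent tissue, 62.9 ± 7.03 in flox tumours and 49.2 ± 5.86 in ΔIEC tumours (SD, n = 3 each). The tumour difference was 4.27 ± 1.1 in flox mice and 4.93 ± 1.1 in ΔIEC mice (log2(FPKM + 1) ± SE). Without FA1 the flox difference became 5.91, and the ratio of flox tumour to flox adjacent mean FPKM went from 6.07 to 1053.

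Hoxd12 (ENSMUSG00000001823, 74675013 to 74677705) encodes the neighbouring protein, which acts with Hoxd13 in digits. Its adjacent levels were 0.993 FPKM in FA1 and 0.03, 0.024, 0.0259, 0.0122 and 0.0581 in FA2, FA3, DA1, DA2 and DA3. In FT1 to FT3 it was at 6.77, 13.9 and 8.39, and in DT1 to DT3 at 9.7, 4.96 and 4.42. No tumour reached down to the adjacent range, and FA1, although the highest adjacent library, held only 12.4% of the tumour mean, a smaller share than for Hoxd13. The difference was 3.00 ± 0.34 in flox and 2.77 ± 0.34 in ΔIEC mice, and 3.32 in flox mice without FA1.

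Hoxd11 (ENSMUSG00000042499, 74679557 to 74687016) shapes the forearm and the kidney together with its HoxA counterpart. It measured 6.45 FPKM in FA1, 0.0554 in FA2, 0.724 in FA3, 0.486 in DA1, 0.257 in DA2 and 0.314 in DA3. Tumour levels were 16.7, 18.3 and 12.4 in FT1 to FT3 and 14.4, 11.5 and 12.6 in DT1 to DT3. The lowest tumour stood above FA1, and FA1 stood above the remaining adjacent libraries. The difference was 2.80 ± 0.55 in flox, 3.62 without FA1, and 3.35 ± 0.55 in ΔIEC mice. Over the 12 libraries 85.0% of the Hoxd11 FPKM belonged to ENSMUST00000048086, a transcript annotated as processed rather than protein-coding, and the rest to the protein-coding ENSMUST00000142312. The latter held 9.35% to 16.9% of Hoxd11 in tumours, so most of the Hoxd11 signal was assigned outside the coding transcript. The transcripts overlap, and no source used here says how reads were divided between them.

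Hoxd10 (ENSMUSG00000050368, 74691924 to 74695105) is known for its part in the lower spinal cord and the hindlimb. In adjacent tissue it stood at 4.58 FPKM in FA1, 0.0433 in FA2, 0.727 in FA3, 0.373 in DA1, 0.229 in DA2 and 0.251 in DA3. In tumours the values were 11.0, 10.4 and 7.65 for FT1 to FT3 and 9.43, 7.16 and 8.05 for DT1 to DT3. The order of libraries was close to that of Hoxd11, with FA1 between the groups. The difference was 2.29 ± 0.47 in flox, 2.98 without FA1, and 2.84 ± 0.47 in ΔIEC mice.

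Hoxd9 (ENSMUSG00000043342, 74697727 to 74700208) also patterns the hindlimb and lower back, and was the lowest of the 5 in tumours. It was at 0.839 FPKM in FA1, 0.29 in FA2 and 0.664 in FA3, and at 0.0935, 0.147 and 0.0699 in DA1, DA2 and DA3. Its tumour levels were 2.78, 3.0 and 1.89 in FT1 to FT3 and 2.27, 1.63 and 1.8 in DT1 to DT3. FA3 came close to FA1, so FA1 did not stand apart here as it did for the 4 genes above, and the tumours again lay above all adjacent libraries. The difference was 1.16 ± 0.18 in flox, 1.26 without FA1, and 1.39 ± 0.18 in ΔIEC mice.

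Hoxd8 (ENSMUSG00000027102, 74704615 to 74707933), the next gene along the cluster, showed no such separation. Its adjacent levels were 0.401 FPKM in FA1, 2.44 in FA2, 3.56 in FA3, 1.88 in DA1, 0.864 in DA2 and 0.116 in DA3. Tumour levels were 0.761, 0.861 and 1.51 in FT1 to FT3 and 1.59, 0.287 and 0.813 in DT1 to DT3. All 6 tumours fell inside the adjacent range, and FA1 and DA3 were the lowest adjacent libraries. The difference was -0.47 ± 0.47 in flox, -0.97 without FA1, and 0.00 ± 0.47 in ΔIEC mice, where its sign depended on the processing (-0.11 after quantile normalization).

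Hoxd4 (ENSMUSG00000101174, 74711929 to 74729160) acts in the hindbrain and neck and is a known target of retinoic acid. It reached 6.69 FPKM in FA2, 11.4 in FA3, 3.34 in DA1 and 2.14 in DA2, but only 0.313 in FA1 and 0.438 in DA3. In tumours it was 0.318, 0.451 and 0.292 in FT1 to FT3 and 0.183, 0.248 and 0.459 in DT1 to DT3. FA1 and DA3 lay within the tumour range while the other 4 adjacent libraries stood above every tumour. The difference was -1.89 ± 0.7 in flox and -1.06 ± 0.7 in ΔIEC mice, and without FA1 the flox value became -2.85, with the ratio of means moving from 0.0576 to 0.039. Of the Hoxd4 FPKM, 52.0% belonged to the protein-coding ENSMUST00000047904 and 44.8% to the processed transcript ENSMUST00000144040, which starts at 74711929, within bases of the first Hoxd3 transcript.

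Hoxd3 (ENSMUSG00000079277, 74711927 to 74748442), which patterns the first neck vertebra, was the lowest member in tumours. It stood at 0.0398 FPKM in FA1, 0.571 in FA2, 0.924 in FA3, 0.175 in DA1, 0.258 in DA2 and 0.0216 in DA3. In tumours it was listed at 0 in FT2, FT3 and DT1 and at 0.0292 in FT1, 0.013 in DT2 and 0.0509 in DT3. The order of adjacent libraries resembled that of Hoxd4, with FA1 and DA3 lowest, but every value was under 1 FPKM and no test was made. A Hoxd3 and a Hoxd4 transcript start within bases of each other and the gene model Gm28230 overlaps both genes, so reads may be split between them and both levels are uncertain.

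**Figure D1:**
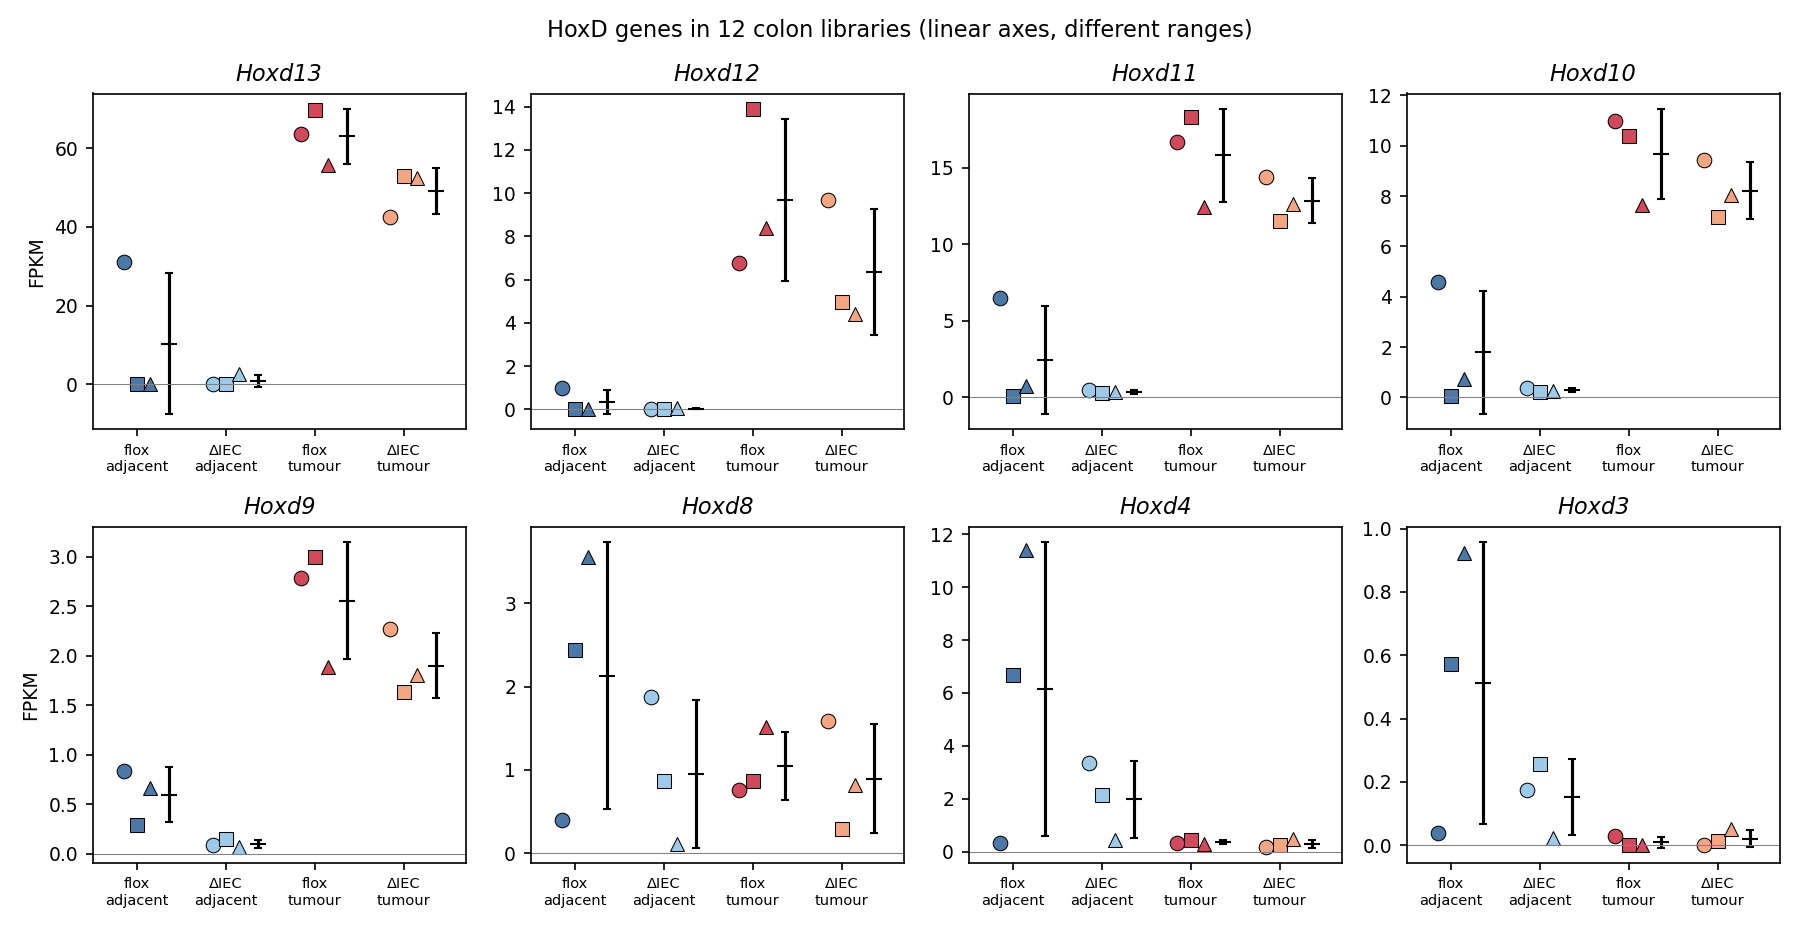
FPKM of the 8 Hoxd genes (linear axes, a different range in each panel) in the 4 groups; each symbol is 1 library (circle, square and triangle for replicates 1, 2 and 3) and the bar to the right is the group mean with its SD (n = 3). For Hoxd9 to Hoxd13 the 6 tumours lie above the 6 adjacent libraries, with FA1 the highest adjacent library, while Hoxd4 and Hoxd3 are highest in FA3 and FA2.

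By the limma fit over all genes, 5 of the 7 tested members were called higher in tumours in each genotype and 0 lower, at a Benjamini-Hochberg adjusted p below 0.05. Of all 16970 genes tested, 36.3% were called in flox mice (16.6% higher and 19.7% lower) and 29.4% in ΔIEC mice (13.9% higher and 15.5% lower), and 11% were called higher in both. Separation of groups without overlap was seen for 5 of 8 members upward in both genotypes, against 26.4% and 20.8% of all genes, and for 1 member, Hoxd3, downward in flox mice and 0 in ΔIEC mice, against 27.1% and 22.9%. The median difference of the 7 was 2.29 in flox and 2.77 in ΔIEC mice, against -0.01 and -0.03 over all genes. The members were chosen with these contrasts in view and nothing is read from the counts. The 5 genes of the high end passed the filter through their tumour levels alone or nearly so.

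In tumours the level per length followed the place in the cluster only in part. Hoxd13 was highest in all 6 tumours (42.5 to 69.6 FPKM) and did not overlap with Hoxd11, the next (11.5 to 18.3). The range of Hoxd12 (4.42 to 13.9) overlapped with those of Hoxd11 and Hoxd10 (7.16 to 11.0), whereas Hoxd11 and Hoxd10 did not overlap. Within libraries Hoxd12 was below Hoxd11 in all 6 tumours, but above Hoxd10 in 3 (FT2, FT3 and DT1) and below it in the other 3, so that pair had no fixed order. Hoxd9 (1.63 to 3.0) lay below Hoxd12 and above Hoxd8 (0.287 to 1.59), with no overlap on either side. Hoxd8 overlapped with Hoxd4 (0.183 to 0.459), and Hoxd4 lay above Hoxd3 (at most 0.0509). Among the 5 high-end genes the tumour values of Hoxd12 spread over the widest ratio.

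**Figure D2:**
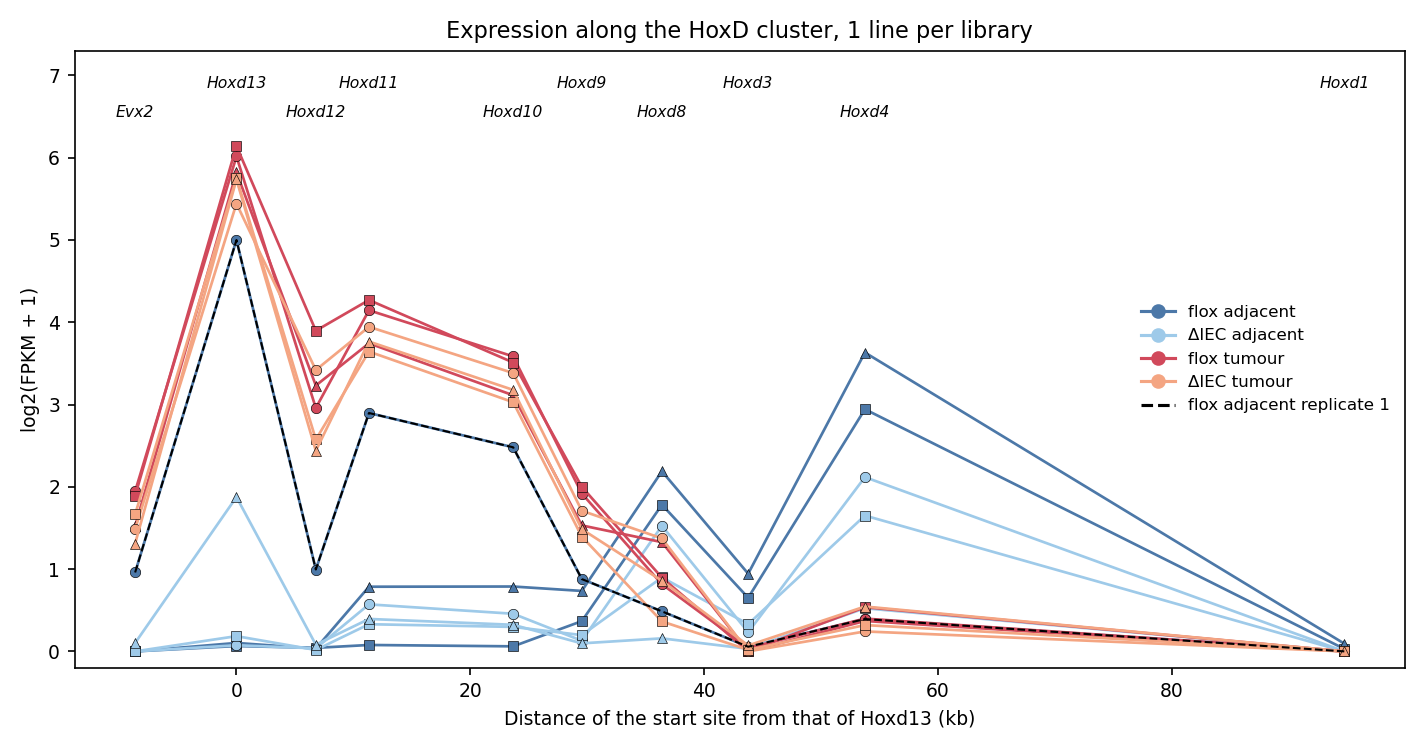
Level (log2(FPKM + 1)) of the Hoxd genes, Evx2 and Hoxd1 against the distance of each start site from that of Hoxd13 (kb), 1 line per library, coloured by group. The dashed line is FA1, and Hoxd3 is placed at its first start site, ahead of Hoxd4. The tumour lines rise from Evx2 to a peak at Hoxd13, dip at Hoxd12 below Hoxd11, and come down to near 0 at Hoxd3. FA2, FA3, DA1 and DA2 are near 0 at Hoxd13 and peak at Hoxd4. FA1 has the shape of the tumour lines at a lower level.

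The share of each end in the summed Hoxd level shows the same contrast within libraries and is free of a library's overall scaling. Hoxd9 to Hoxd13 made up 97.8% to 99.3% of the summed FPKM of the 8 genes in tumours. In adjacent tissue they made up 98.3% in FA1 and 85.4% in DA3, but 4.57% in FA2, 12.2% in FA3, 16.0% in DA1 and 19.3% in DA2. FA1 and DA3 thus resembled the tumours in the balance of the cluster, and the other 4 adjacent libraries were dominated by Hoxd4, at 52.0% to 65.8% of the sum. DA3 differed from FA1 in amount: its 8 genes summed to 3.94 FPKM, against 44.6 in FA1. The summed level of Hoxd3, Hoxd4 and Hoxd8 was 0.753 in FA1 and 0.576 in DA3, 3.26 to 15.9 in the other 4 adjacent libraries and 0.548 to 1.8 in tumours.

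In the labels 5 codes each name a tumour and an adjacent library, and although the labels do not say that a code is an animal, the values can be set side by side. Hoxd13 was 2.06 times as high in FT1 as in FA1, 1510 times in FT2 over FA2, 755.9 times in FT3 over FA3, 384.7 times in DT2 over DA2 and 19.6 times in DT3 over DA3. Hoxd11 gave 2.59, 331.0, 17.2, 45.0 and 40.1 in the same order, and Hoxd10 gave 2.4, 240.4, 10.5, 31.2 and 32.0. Hoxd12 gave 6.82, 461.9, 350.2, 405.3 and 76.1, and Hoxd9 gave 3.31, 10.4, 2.84, 11.1 and 25.7. The high-end genes were thus higher in the tumour for all 5 codes, with FA1 giving the smallest ratio for every one of them except Hoxd9. Hoxd4 was at 1.02, 0.0674, 0.0255, 0.116 and 1.05 times the adjacent level, lower in 3 of the codes and nearly level in those of FA1 and DA3. Ratios over adjacent levels far below 1 FPKM are imprecise.

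How the members varied together is given here as Pearson correlations of log2(FPKM + 1) without a test, since the libraries share the tumour contrast. Over the 12 libraries Hoxd10 and Hoxd11 had r = 1.00, both had r = 0.97 with Hoxd13, and Hoxd9 had r = 0.96 with each of Hoxd10, Hoxd11 and Hoxd12. Hoxd3 and Hoxd4 had r = 0.97, and Hoxd8 had r = 0.77 with Hoxd4. Between the low and the high end the 12-library values ran from -0.85 (Hoxd4 with Hoxd13) to -0.12 (Hoxd8 with Hoxd9). Within the 6 adjacent libraries Hoxd4 had r = 0.98 with Hoxd8 and -0.76 with Hoxd13, and Hoxd10 had r = 1.00 with Hoxd11, a group in which FA1 lies far from the rest. Within the 6 tumours Hoxd9 and Hoxd11 had r = 0.99, whereas Hoxd12 and Hoxd13 had only r = 0.30 and Hoxd4 and Hoxd8 r = -0.23. Within the 6 tumours the negative relation between the ends was absent for most pairs. There Hoxd4 had r = 0.26, 0.19, 0.33, 0.00 and 0.66 with Hoxd9, Hoxd10, Hoxd11, Hoxd12 and Hoxd13. Hoxd8 had r = 0.20, 0.20, 0.15, 0.52 and -0.34 in the same order, and Hoxd3 ran from -0.77 (Hoxd12) to 0.03 (Hoxd13). Within the adjacent libraries only the pairs with Hoxd9 were positive, at r = 0.30 (Hoxd3), 0.11 (Hoxd4) and 0.20 (Hoxd8).

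The question whether loss of Synbindin alters these genes was tested, since the choice of members is not stated to have used genotype. Earlier results of these data were known at that choice, so the genotype comparisons may not be fully independent of it. In tumours the log2 differences of all 7 tested members, ΔIEC minus flox, were below 0, from -0.55 (Hoxd12) to -0.07 (Hoxd4), and 0 of 7 were called in limma's fit over all genes (adjusted p = 1 for each). The smallest unadjusted p was 0.136, for Hoxd12, and 0 of the 7 had one below 0.05. For all 16970 genes the fit also called 0 (0%), with 317 at an unadjusted p below 0.05. Trappc4, which encodes Synbindin, was likewise not called, at -0.70 in tumours and -0.59 in adjacent tissue (ΔIEC minus flox). A lack of calls in this fit thus cannot show that the members are unaltered. The interval of the Hoxd13 difference ran from -2.81 to 2.12 around -0.35, that of Hoxd12 from -1.31 to 0.20, and that of Hoxd9 from -0.69 to 0.11 around -0.29. Hoxd13 was the only member whose tumour groups did not overlap, with 42.5 to 52.9 FPKM in ΔIEC and 55.6 to 69.6 in flox mice. Its ΔIEC mean was 78.2% of the flox mean, and of all genes 3.74% were lower without overlap and 3.03% higher. The interval of Hoxd13 uses 1 estimate of the spread over all 4 groups, FA1 and DA3 included.

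In adjacent tissue the 7 differences were also below 0, from -1.01 (Hoxd13) to -0.31 (Hoxd12), and 0 of 7 were called in limma's fit (adjusted p between 0.931 and 0.934), as were 0 of all genes (0%, with 702 at an unadjusted p below 0.05). Hoxd9 differed by -0.52, with an interval of -0.92 to -0.12 and an unadjusted p of 0.016 that did not pass adjustment (0.931). Its levels were 0.29 to 0.839 FPKM in flox and 0.0699 to 0.147 in ΔIEC libraries and did not overlap, which was so for 5.14% of all genes in that direction and 2.56% in the other. The values of Hoxd10 to Hoxd13 rested on FA1. Without it the differences were -0.07 for Hoxd10, 0.00 for Hoxd11, 0.01 for Hoxd12 and 0.63 for Hoxd13. Without FA1 Hoxd4 moved the other way, from -0.89 to -1.86, and Hoxd8 from -0.63 to -1.13, and 0 of the members were called. Without DA1 the fit called 303 of all genes (293 higher and 10 lower in ΔIEC mice) but still 0 of the members.

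Whether the tumour difference itself depends on genotype was tested as an interaction. The interaction, the tumour difference in ΔIEC mice minus that in flox mice, ran from -0.24 (Hoxd12) to 0.83 (Hoxd4), and 0 of 7 members and 0 of all genes (0%, 448 at an unadjusted p below 0.05) were called in limma's fit (adjusted p = 1). Its interval was -2.82 to 4.15 for Hoxd13, -1.18 to 2.28 for Hoxd11 and -0.33 to 0.80 for Hoxd9, so these intervals leave room for a difference of several fold in Hoxd13. Without FA1 the sign turned for Hoxd10 (-0.14), Hoxd11 (-0.27) and Hoxd13 (-0.98).

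**Figure D3:**
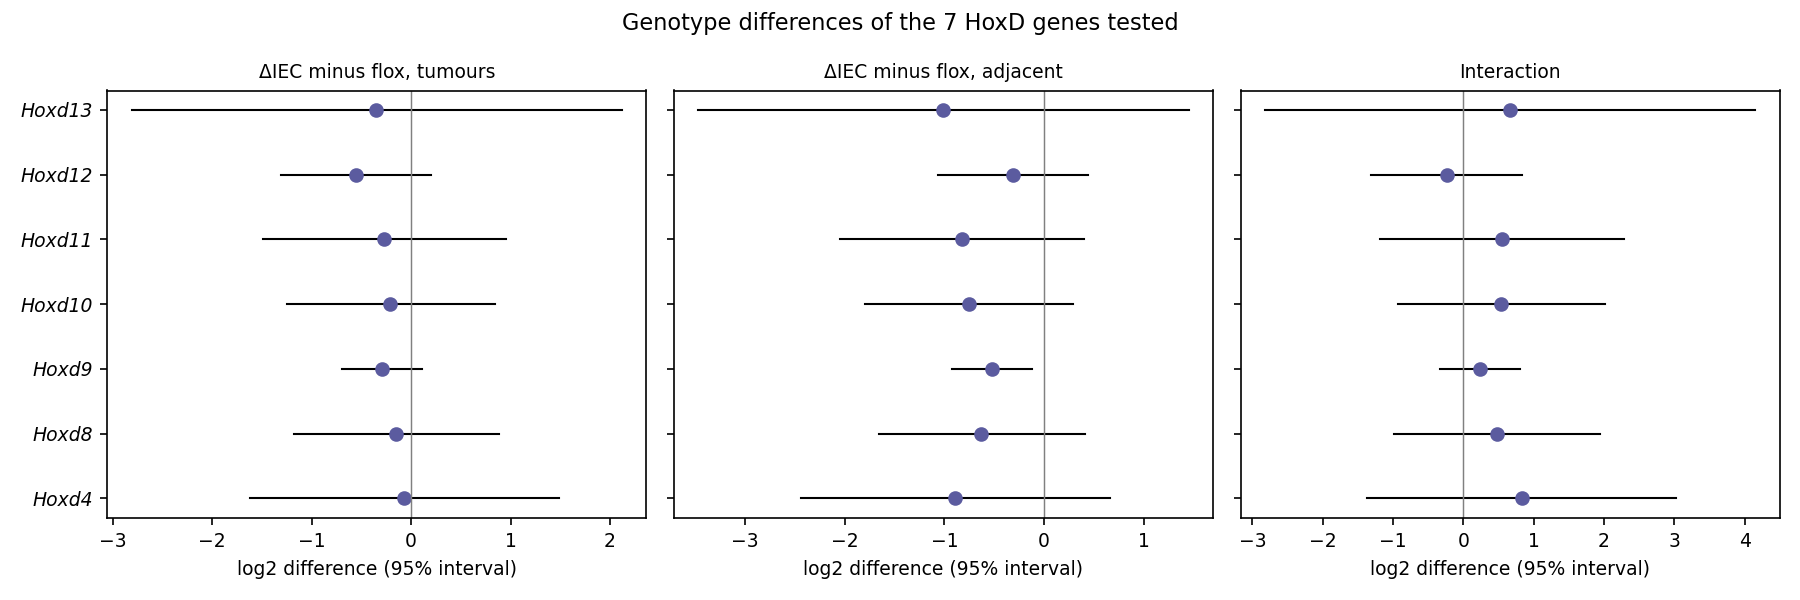
Log2 differences of the 7 tested Hoxd genes with their 95% intervals from the limma fit: ΔIEC minus flox in tumours, the same in adjacent tissue, and the interaction. All intervals include 0 except that of Hoxd9 in adjacent tissue (-0.92 to -0.12), which was not called after adjustment.

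Levels were also read in the 12 other genes annotated from Evx2 to Hoxd1, of which 5 passed the filter. Evx2, Gm28309, Gm14396 and Gm28793 passed it through their tumour levels, with at most 1 adjacent library at 1 FPKM or more, so a tumour difference was favoured by the filter and their calls support nothing. Evx2, a homeobox gene beside Hoxd13 that shares its enhancers in limbs, was called higher in both genotypes (1.47 and 1.45, adjusted p = 0.00189 and 0.00311 in limma's fit). It was listed at 0 in FA2, FA3, DA1 and DA2, at 0.0733 FPKM in DA3, 0.944 in FA1 and 1.48 to 2.85 in tumours, with FA1 and then DA3 the highest adjacent libraries, as for Hoxd13. Gm28309, a transcript model that spans Hoxd11 and Hoxd10, was called at 1.45 and 1.94, and Gm14396, next to Hoxd10, at 1.23 and 0.87 (adjusted p = 0.00611 and 0.00247, and 0.00402 and 0.0237, limma). Gm28793, antisense near Hoxd9, gave 0.90 and 0.93 and was not called (adjusted p = 0.0523 and 0.0545, limma). Hoxd3os1, antisense to Hoxd3 and Hoxd8, was highest in FA3 (5.34 FPKM), FA2 (3.14) and DA1 (2.51), the adjacent libraries highest in Hoxd4. Its tumour levels did not follow Hoxd4 and lay inside the adjacent range, at 0.614 to 1.88, with FT1 (1.88) and FT3 (1.62) above DA2 (1.23) and all 6 above FA1 (0.274). It was not called (-0.42 in both genotypes, adjusted p = 0.539 and 0.561, limma). Gm28230 (at most 1.81) and Haglr (at most 0.722) were likewise highest in FA3 and FA2, and Hoxd1 was at most 0.0673 FPKM. The kit marks strand, but no source used here says whether reads were assigned by strand, so overlapping and antisense genes may share reads. Mir10b, Gm44463 and Gm14426 were listed at 0 in all 12 libraries and Gm14424 was at most 0.123 FPKM.

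Of the 7 protein-coding genes within 1 Mb of the cluster, Chn1 (1.32 and 1.54) and Lnpk (0.59 and 0.67) were called higher in flox and ΔIEC tumours and Hnrnpa3 in ΔIEC tumours (0.49), against 16.6% and 13.9% of all genes. Atp5g3 was called lower in both (-0.87 and -0.51) and Nfe2l2 in flox tumours (-1.15), against 19.7% and 15.5%, while Atf2 (0.01 and -0.10) and Mtx2 (0.03 and 0.24) were not called.

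The other Hox clusters were set beside the Hoxd genes. Of 10 tested Hoxa genes 0 were called higher and 2 (Hoxa7, Hoxa2) lower in flox tumours, and 0 and 4 (Hoxa3, Hoxa2, Hoxa7, Hoxa4) in ΔIEC tumours, but after rescaling to protein-coding genes 1 was higher in each genotype and 1 and 2 lower. Of 8 tested Hoxb genes only Hoxb9 was called, lower in both genotypes (-1.29 and -0.80), and after that rescaling in flox mice alone. Of all genes 16.6% were called higher and 19.7% lower in flox mice, and 13.9% and 15.5% in ΔIEC mice. After the rescaling 5706 of 13398 genes were called higher and 1546 lower in flox mice, and 4109 and 1308 in ΔIEC mice. The filter was passed by 0 of 9 Hoxc genes. Hoxa13, the HoxA counterpart of Hoxd13, was at 13.0 to 21.1 FPKM in tumours and 4.46 to 26.1 in adjacent tissue. Hoxb13, its HoxB counterpart and a marker of the distal colon, was 120.5 FPKM in FA1, 10.2 in FA2, 1.56 in FA3, 30.1 in DA1, 39.5 in DA2, 102.9 in DA3 and 40.9 to 53.4 in tumours. FA1 and DA3, the adjacent libraries with a tumour-like balance of Hoxd genes, were thus those with the most Hoxb13, and FA3, with the most Hoxd4, had the least. Hoxb6 ran the other way, at 0.321 FPKM in FA1, 0.0801 in DA3, 21.9 in FA2, 43.9 in FA3, 24.0 in DA1 and 6.24 in DA2. The summed distal colon markers Hoxb13 and Insl5 were 217.7 in FA1 and 200.7 in DA3, 5.3 to 95.8 in the other 4 adjacent libraries and 41.1 to 63.8 in tumours. The tumour sum was mostly Hoxb13, because Insl5 was at 0.194 to 10.4 FPKM in tumours, against 3.74 to 97.8 in adjacent tissue. No source used here says where along the colon each sample was taken, and the part of these markers in the Hoxd levels was not tested.

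**Figure D4:**
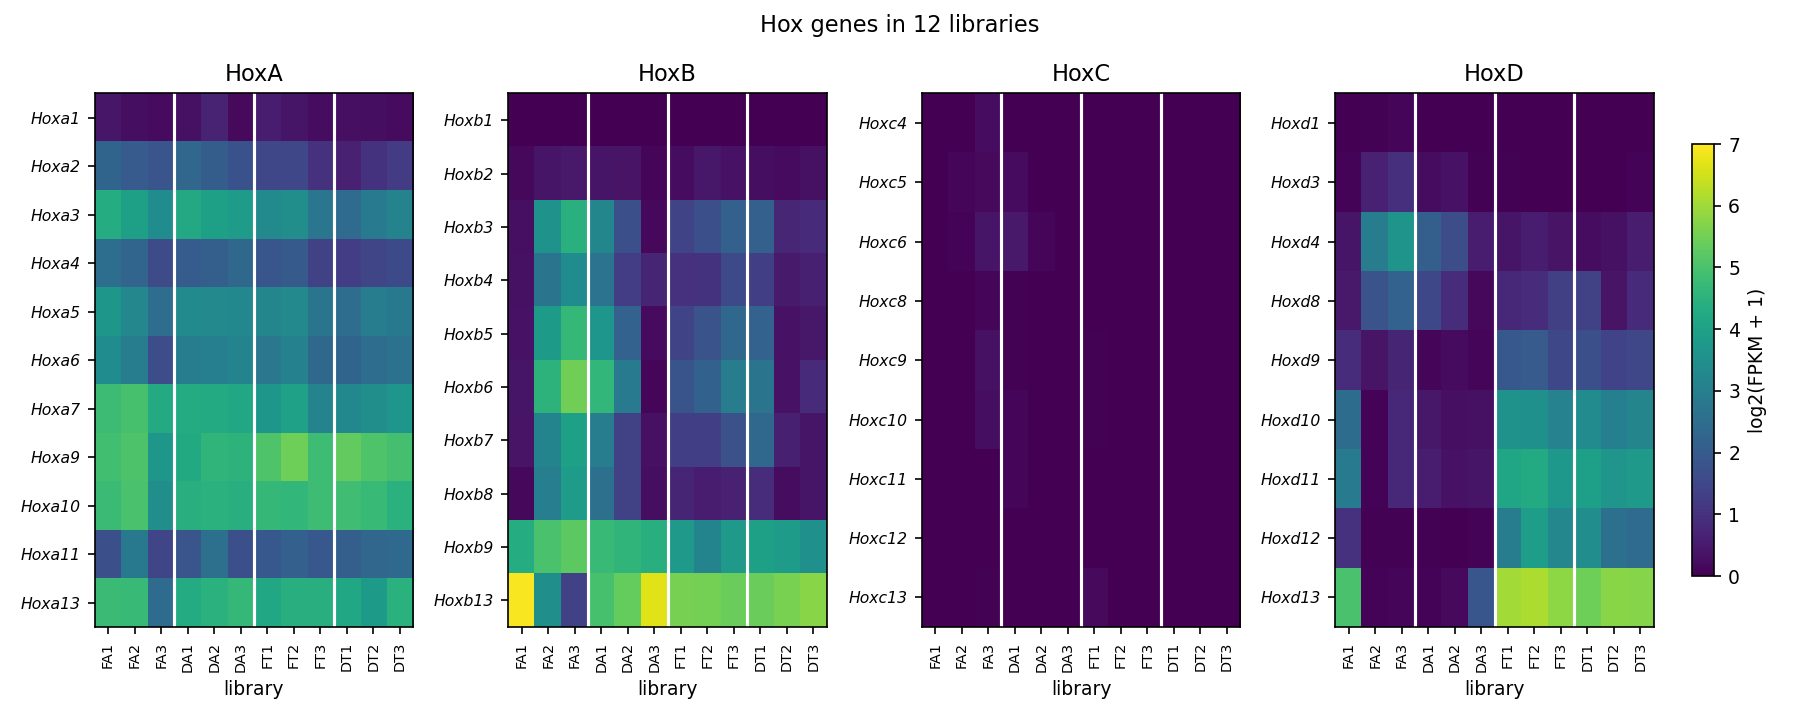
Level (colour, log2(FPKM + 1)) of every Hox gene of the HoxA, HoxB, HoxC and HoxD clusters in the 12 libraries (FA flox adjacent, DA ΔIEC adjacent, FT flox tumour, DT ΔIEC tumour; white lines part the groups). Hoxd9 to Hoxd13 stand out in the 6 tumours, and Hoxd10, Hoxd11 and Hoxd13 in FA1 too, while Hoxb3 to Hoxb8 and Hoxd4 are brightest in FA2, FA3 and DA1.

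Markers of some other cell types also differed between the groups that separate the high-end Hoxd genes. The 8 squamous epithelium markers summed to 1.05 to 4.88 FPKM in adjacent tissue and 21.2 to 506.5 in tumours, highest in FT1 (506.5) and FT2 (364.8), while Hoxd13 in those libraries was 63.7 and 69.6, close to the 55.6 of FT3 with a sum of 25.2. Across adjacent libraries the 3 with the largest fibroblast sums, DA2 (331.5), DA3 (269.6) and FA1 (226.8), were the 3 with the most Hoxd13 (0.137, 2.67 and 31.0), although in the reverse order among themselves. FA3, FA2 and DA1, with fibroblast sums of 115.6, 75.7 and 62.8, had 0.0735, 0.0461 and 0.0529 FPKM of Hoxd13. The fibroblast sum of every tumour but DT1 (323.8) was above all adjacent libraries. DT1 lay below DA2 (331.5), although Hoxd13 was 42.5 in DT1 and 0.137 in DA2. Of the 11 fibroblast markers 7 were called higher in flox and 1 in ΔIEC tumours, against 16.6% and 13.9% of all genes. After rescaling to protein-coding genes these counts were 8 and 6, when 5706 and 4109 of all 13398 genes were called higher. For the interaction 0 of the 11 were called, as were 0 of all genes. The 8 endothelium markers summed to 11.9 to 47.3 FPKM in adjacent tissue and 41.0 to 58.1 in tumours. Smooth muscle markers did not separate: the 8 summed to 18.7 to 255.8 FPKM in adjacent tissue and 37.4 to 278.0 in tumours. In each genotype 0 of these 8 were called, against 36.3% of all genes in flox and 29.4% in ΔIEC mice. The part of cell composition in the tumour difference was not tested.

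For the partners and regulators of HOX proteins, the counts below stand against 16.6% of all genes called higher and 19.7% lower in flox mice, and 13.9% and 15.5% in ΔIEC mice. After rescaling to protein-coding genes, 5706 of all 13398 genes were called higher and 1546 lower in flox mice, and 4109 and 1308 in ΔIEC mice, so counts after it are to be read against that larger share. The TALE cofactor Meis2 was called higher in both genotypes (1.84 and 1.40) and Meis3 lower (-0.98 and -0.76, the latter not called after the rescaling), and the other 6 of 8 tested were not called. Of 22 Polycomb genes 7 were called higher and 4 lower in flox tumours, and 6 and 4 in ΔIEC tumours, but 9 and 0, and 9 and 3, after rescaling to protein-coding genes. Those higher in both included Cbx6 (1.82 and 0.97), Bmi1 (0.99 and 0.94), Cbx2 (0.89 and 0.79) and Ezh2 (0.74 and 0.77), the enzyme that places the Polycomb mark, and those lower Phf1 (-0.68 and -0.95) and Phf19 (-0.74 and -1.05), neither of them called in flox mice after the rescaling. Of 11 Trithorax-type genes and H3K27 demethylases Ash2l (0.55 and 0.60) and Wdr5 (0.29 and 0.34) were called higher and Kmt2c lower (-0.45 and -0.51, not called after the rescaling). Of 7 CTCF and cohesin genes 0 were called in flox tumours and 1 (Smc3, 0.36) in ΔIEC tumours, but 7 and 4 after the rescaling. In the retinoid pathway 6 of 11 genes were called higher and 3 lower in flox tumours, and 4 and 2 in ΔIEC tumours. They included Stra6, the receptor that takes up retinol (4.46 and 4.36), and the retinoic acid synthesizing enzymes Aldh1a3 (4.45 and 4.07) and, in the other direction, Aldh1a1 (-4.37 and -3.35). Of 6 tested gut patterning factors 0 were called higher, and 6 lower in flox and 5 in ΔIEC tumours, among them Cdx2 (-4.32 and -3.58), Cdx1 (-1.81 and -1.65) and Hnf4g (-1.67 and -1.37). No gene of these lists was called for genotype or interaction in limma's fit.

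**Figure D5:**
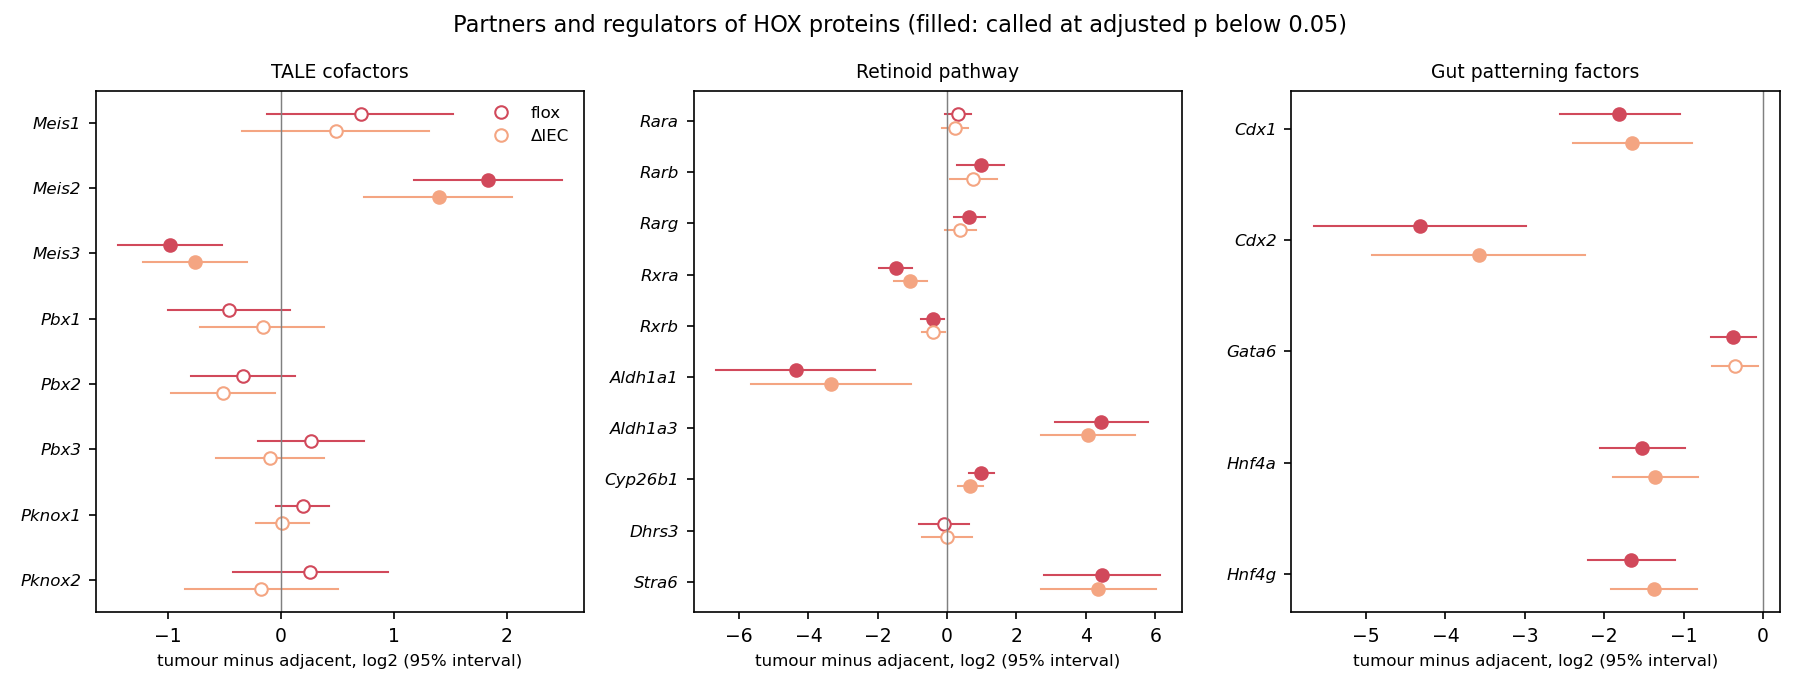
Tumour minus adjacent log2 differences with 95% intervals for TALE cofactors and for selected retinoid pathway genes and gut patterning factors in flox (red) and ΔIEC (orange) mice; filled points were called at an adjusted p below 0.05. Stra6 and Aldh1a3 lie above 4 in both genotypes and Cdx2 and Aldh1a1 below -3.

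Genes whose level was most like that of the members over the 12 libraries were sought among 12930 tested protein-coding genes outside the Hox clusters, by Pearson correlation with the mean standardized level of the 7 tested members, with no test. The most alike were Itga6 and Sh3bp4 (r = 0.96) and Alas2, Hmgb3, Ppl and Ash2l (r = 0.95). After the mean of each group was taken out they were Hmbox1 and Etaa1 (0.92), Atp13a3 (0.89), Atxn3 and Zrsr2 (0.88) and Acsl1 (0.86), none of them the same gene. Since the ends of the cluster were negatively correlated over the 12 libraries, each end was also used alone, a choice made after the values were seen. Most like Hoxd9 to Hoxd13 were Dstyk and Evx2 (0.99), Uri1, Mettl7a3 and Slmap (0.98) and Wfdc18 (0.97). Most like Hoxd4 and Hoxd8 were Nceh1 (0.98), Nupr1 (0.97) and Adh5, Defb37, Isx and Trak2 (0.96). Isx, for one, was at 85.3 FPKM in FA2, 116.3 in FA3, 53.2 in DA1, 28.6 in DA2, 4.56 in FA1 and 5.46 in DA3. That is the order of adjacent libraries that Hoxd4 showed. In tumours Isx was at 4.19 to 11.1 and highest in DT1, where Hoxd4 was lowest (0.183).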

How the data were processed

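RNA-seq of 12 colon libraries was analysed from the authors' deposited table of 123062 transcripts. Its values are log2(FPKM + 1), as the authors deposited them, read from the values themselves. The submitters' processing notes name FastQC, STAR 2.5, Cuffnorm and GRCm38; no source used here gives their settings. Of the transcripts 95.9% matched GENCODE M21, and FPKM was summed per gene; unmatched transcripts held 4.36% to 7.44% of a library's FPKM. No 2 libraries were identical.

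limma 3.58.1 (R 4.3.3) was fitted to log2(FPKM + 1), a pseudocount of 1, over the 4 group means, with empirical Bayes moderation set to trend and robust, 8 residual degrees of freedom and two-sided Benjamini-Hochberg adjustment over 16970 genes, for 5 contrasts. The procedure was tested on simulated data. Intervals are at 95%. Fold values on this scale understate changes of low genes. Without read depth no counting interval can be given.

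The members and gene lists were chosen with earlier results of these data known. Named are the members, all genes within the cluster, protein-coding genes within 1 Mb, up to 4 called genes of each list with the largest difference (or the smallest p), the 6 most like genes of each correlation, and transcripts with at least 10% of a member's FPKM; some genes the rule names are not reported here, though list counts include them. Alternatives were a pseudocount of 0.1, other filters, quantile normalization, median centring, protein-coding genes rescaled to 1 total, protein-coding transcripts, only the groups compared, plain eBayes, 2 replicate blocks and leaving out each library.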

Additional observations from a re-analysis of the deposited data

How the results depend on the processing

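The counts of members called (5 of 7, 5, 0, 0 and 0 for the 5 contrasts) kept within 1.5 times of their value in every alternative run. For the tumour contrasts this supports nothing, because the members were chosen with those contrasts in view. The adjusted p-values of members given below for those contrasts only describe how the calls moved. With the filter at 5 FPKM, Hoxd4, Hoxd8 and Hoxd9 did not pass, so that run held fewer members and could not call Hoxd9. Single members moved. In flox mice Hoxd13 missed the threshold when only its 2 groups were fitted (4.27, adjusted p = 0.0568, limma) and without FA2 (3.44, 0.0582) or FA3 (3.46, 0.0529), with a range of 3.44 to 5.91 over the left-out libraries. Hoxd4 passed it after rescaling (-1.68, 0.0469), with protein-coding transcripts only (-1.51, 0.0357) and without FA1 (-2.85, 0.00127), with a range of -2.85 to -1.23; the cause was not tested. The sign turned for Hoxd8 in ΔIEC mice with quantile normalization (-0.11), for Hoxd4 by genotype in tumours with protein-coding transcripts (0.01) and for the Hoxd12 interaction at a pseudocount of 0.1 (0.37). Leaving out 1 library also turned the sign of Hoxd8 in ΔIEC mice (-0.35 to 0.34) and by genotype in tumours (-0.40 to 0.10). It did so by genotype in adjacent tissue for Hoxd11 (-1.41 to 0.00), Hoxd12 (-0.47 to 0.01) and Hoxd13 (-1.84 to 0.63). For the interaction the ranges were -0.14 to 1.07 (Hoxd10), -0.27 to 1.14 (Hoxd11), -0.56 to 0.03 (Hoxd12) and -0.98 to 1.49 (Hoxd13). None of these turned values passed the threshold. Among other genes in flox mice, the sign turned for Phf19 with protein-coding transcripts (0.26), Hoxd3os1 without FA3 (0.07, range -1.09 to 0.07 over the left-out libraries), Atf2 (-0.04 median centring, -0.15 protein-coding transcripts, -0.08 without FA3, -0.07 without FT1, range -0.08 to 0.07) and Mtx2 (-0.02 and -0.15 in the same alternatives, -0.02 without FA1, -0.15 without FT3, range -0.15 to 0.13), and in ΔIEC mice for Atf2 (0.03 quantile, 0.19 rescaled).

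Rescaling to protein-coding genes moved the median of all genes by 0.37 in flox and 0.25 in ΔIEC mice, with 5706 higher and 1546 lower calls against 2817 and 3346, and 4109 and 1308 against 2357 and 2624. Only the groups compared gave 1136 and 1428 calls in ΔIEC mice, and for genotype in tumours 1 call against 0; without the filter that contrast had 8 calls of 31599 genes. Among all genes, 3898 were called in flox mice without FA2 against 6163 with it, and 2919 in ΔIEC mice without DT1 against 4981. The replicate block by title number or by code left the members' counts at 5, 5, 0, 0 and 0. Deviations of libraries with the same code correlated between -0.192 and 0.17, not all above 0.1, and the codes were not used to pair. Such correlations cannot show whether libraries with the same code come from the same animal. Unknown depth limits every value below 1 FPKM.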
